A study of Homo sapiens with 4 samples.

Results

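The genes described are 47 genes of the human proteasome, the barrel-shaped protease that degrades ubiquitin-marked proteins. They were taken by gene symbol from a table of 58302 gene rows, and all 47 were found. They comprise 7 genes of the alpha ring of the core, 7 of the constitutive beta ring, 3 immunoproteasome subunits, 9 genes of the base and 8 of the lid of the regulatory particle, 3 base assembly chaperones, 5 genes of activators and an inhibitor, and 5 core assembly chaperones. Total RNA of BLaER1 cells was sequenced, giving 2 differentiated and 2 undifferentiated libraries. Differentiated cells had been kept for 5 to 6 days with oestradiol at 100 nM, IL-3 and M-CSF, per the labels. The labels write the concentration of 10 ng/ml before IL-3, and it is not certain that it also holds for M-CSF. No treatment is given for undifferentiated cells. As background, BLaER1 is a clonal line derived from a human B cell leukaemia, and at both stages its cells carry the transcription factor C/EBPα fused to the hormone-binding part of the oestrogen receptor. Oestradiol activates this fusion and turns the cells towards a macrophage fate. The comparison therefore rests on 1 line, driven by a transgene.

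In the proteasome, alpha subunits form the outer rings of the core and gate the entry of substrates, while beta subunits form the inner rings and carry the proteolytic sites. PSMB5, PSMB6 and PSMB7 are the constitutive catalytic subunits, and interferon-inducible PSMB8, PSMB9 and PSMB10 take their places in the immunoproteasome, which trims antigens for MHC class I. The regulatory particle recognises, unfolds and feeds in ubiquitinated proteins, whereas the activators PSME1 to PSME4 open the core without recognising ubiquitin. Macrophages and B cells both present antigen and are known to use immunoproteasomes.

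The labels were checked against marker genes. The 6 macrophage markers were all called higher in differentiated cells, with summed TPM of 602 and 673 in differentiated libraries against 7.94 and 6.22 in undifferentiated libraries. All 8 pre-B and B cell markers were called lower, with summed TPM of 11.1 and 12.2 in differentiated libraries and 427 and 257 in undifferentiated libraries. The 6 proliferation genes summed to 3.17 and 5.39 TPM in differentiated cells against 142 and 72.8 TPM in undifferentiated cells, and all 6 were called lower. T cell genes summed to at most 0.83 TPM in any library, with CD3D and CD3E listed at 0 throughout. Erythroid genes reached at most 0.47 TPM in sum, and the fibroblast genes COL1A1 and COL1A2 stayed at or below 0.28 TPM. The third fibroblast gene, PDGFRB, had 0.87 and 0.41 TPM in differentiated libraries and 4.99 and 2.24 TPM in undifferentiated libraries and was called lower (adjusted p = 0.00629). The 3 fibroblast genes together summed to 1.15 and 0.47 TPM in differentiated libraries and 5.18 and 2.25 TPM in undifferentiated libraries, and their part in the results below was not tested. TPM, a transcript abundance, divides by gene length and by the library's total, so the sequencing depth of the libraries is unknown. Protein-coding genes took 12.2% and 13.5% of all TPM in differentiated libraries against 23.0% and 15.6% in undifferentiated libraries. The labels do not say whether replicate libraries came from separate cultures. The p-values then measure only the spread among the 4 libraries, and that spread may be technical.

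Transcripts of 23 proteasome genes were called lower in differentiated than in undifferentiated BLaER1 cells, with the alpha ring gene PSMA6, the activator PSME2 and the chaperones PSMG1 and POMP among the largest differences. Of the 46 genes tested, 23 were called lower, 23 were not called and 0 were called higher in limma with Benjamini-Hochberg adjustment, where called means an adjusted p below 0.05 over all 10180 genes tested. At an unadjusted p below 0.05 the counts were 28 lower and 1 higher. Across all genes tested, 22.8% were called lower and 18.6% higher. The median log2 difference of the 46 genes, differentiated minus undifferentiated on the log2(TPM + 1) scale, was -1.04, against -0.14 for all genes tested. Over the 4511 genes that passed a filter of 5 TPM, the median was -0.30. Of these, 1420 were called lower, among them 19 proteasome genes. In the 23 proteasome genes called lower over all 10180 genes, mean TPM was 2.23 to 8.78 times higher in undifferentiated than in differentiated cells. Only PSMD5 was not tested, being below 1 TPM in all 4 libraries, and 43 of the 47 genes were at or above 1 TPM in every library. In bulk RNA, fewer cells of a type and less RNA per cell cannot be told apart.

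The TPM of the stages overlapped in 6 of the 46 tested genes. In 39 genes both differentiated libraries were lower, against a background of 39.0% of all genes tested, and in PSMB10 alone both were higher, against 31.0%. In TPM as deposited the undifferentiated libraries varied more, with replicate 1 above replicate 2 in 44 of the 46 genes and a median TPM ratio of 1.55. Differentiated replicate 2 was above replicate 1 in 32 genes, with a median ratio of 1.17. These counts and ratios include any difference in scale between whole libraries. The size factors of median-of-ratios scaling were 1.38 and 0.813 for the undifferentiated libraries and 0.952 and 0.976 for the differentiated libraries. Spread in the proteasome genes apart from library scale was not tested. The number of genes called lower depended on single libraries, and it moved together with the share of all genes tested that was called lower. It was 1 without differentiated replicate 1 (3.38% of all genes) and 2 without differentiated replicate 2 (3.31%). It was 21 without undifferentiated replicate 1 (20.6%) and 37 without undifferentiated replicate 2 (37.5%). Without undifferentiated replicate 1, PSMB10 was in addition called higher, against 26.7% of all genes.

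**Figure D1:**
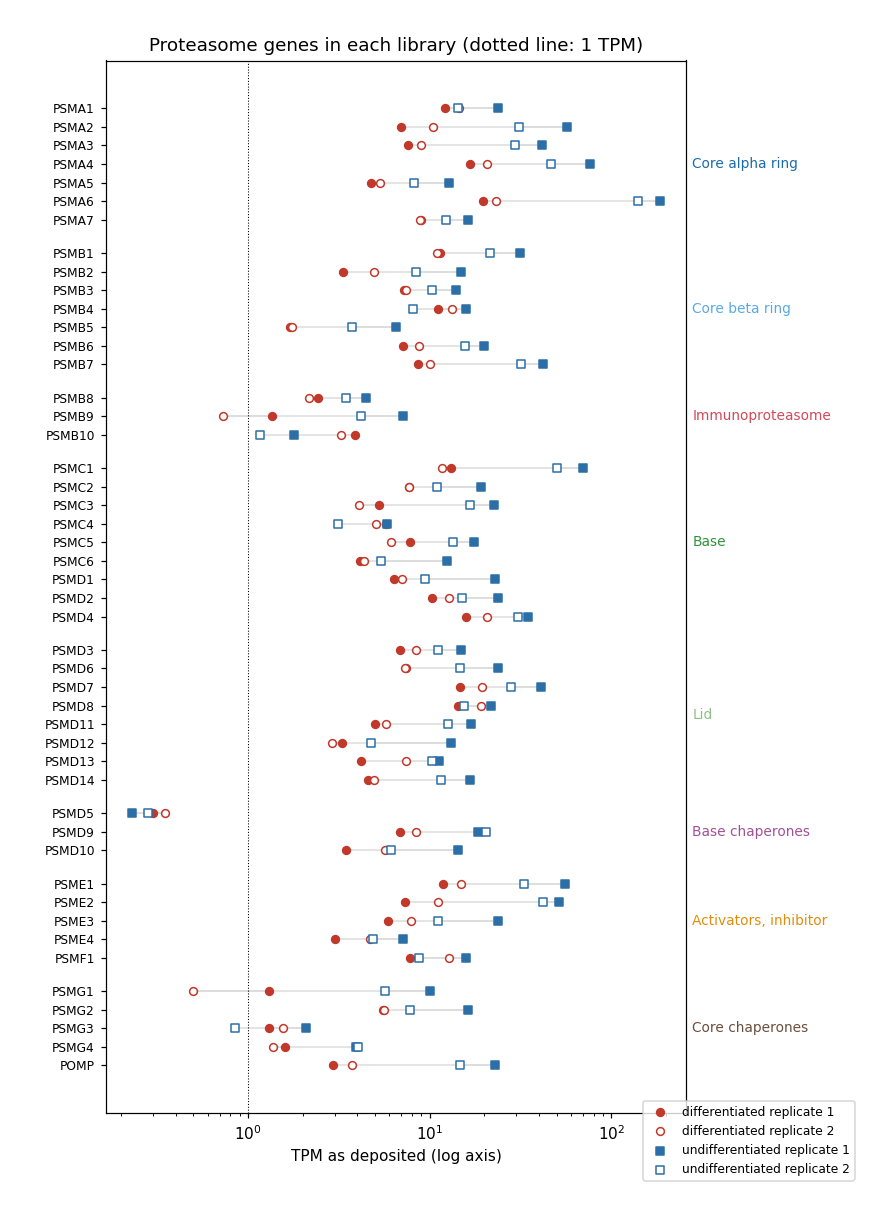
TPM of the 47 proteasome genes on a log axis, in differentiated libraries (circles) and undifferentiated libraries (squares), with replicate 1 filled and replicate 2 open. In 39 of the 46 tested genes both circles lie left of both squares, against 39.0% of all genes tested. PSMD5 lies below 1 TPM (dotted line) in all 4 libraries.

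The scale of the libraries bears on these values, since protein-coding genes took a smaller part of TPM after differentiation. When TPM were rescaled over protein-coding genes alone, the median log2 difference was 0.37 over the 11945 genes then tested. Over the 10180 genes tested as deposited it was -0.14. The median of the 47 proteasome genes after rescaling was -0.59. The 2 medians of all genes are over different gene sets, and the pseudocount of 1 TPM weighs less on the larger rescaled values. On that scale 18 of the 47 genes were called lower, against 18.0% of all genes tested, and 2, PSMB10 and PSMC4, were called higher, against 34.3%. All 23 genes called lower on the deposited scale kept a difference below 0 after this rescaling, and 18 of them kept their call. As a share of protein-coding TPM, the 47 genes took 0.272% and 0.289% in differentiated libraries against 0.523% and 0.522% in undifferentiated libraries. Without PSMA6, the most abundant of them, the shares were 0.256% and 0.271% in differentiated libraries and 0.443% and 0.432% in undifferentiated libraries. The replicates of a stage were closer to each other in this share than in summed TPM, which was 331 and 389 in differentiated libraries against 1204 and 814 in undifferentiated libraries.

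**Figure D2:**
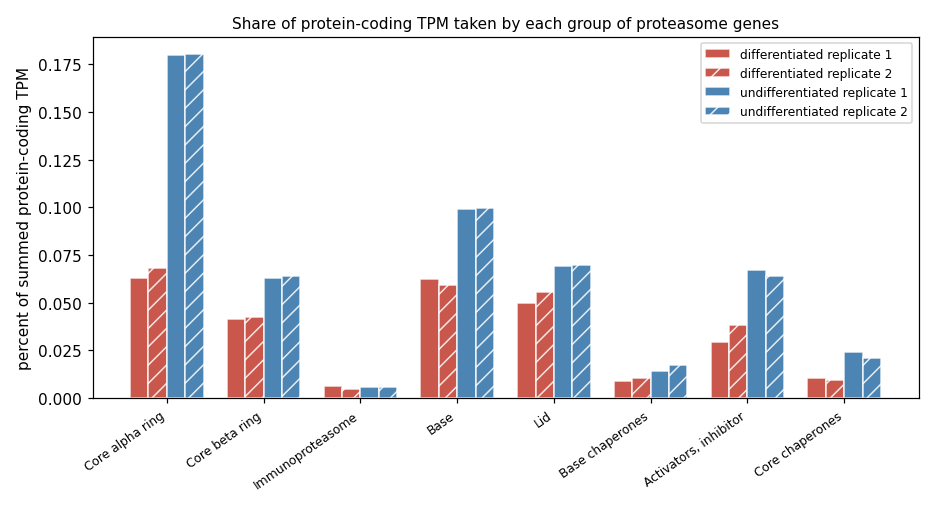
Share of summed protein-coding TPM (percent) taken by each group of proteasome genes, with differentiated libraries (red) left of undifferentiated libraries (blue) and replicate 2 hatched. The alpha ring took 0.0631% and 0.0682% in differentiated libraries against 0.180% and 0.181% in undifferentiated libraries, and the immunoproteasome bars overlap between stages.

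In the alpha ring, 4 of 7 genes were called lower (median log2 difference -1.63), against 22.8% of all genes tested. PSMA6 (ENSG00000100902) had 19.8 and 23.3 TPM in differentiated cells and 186 and 140 TPM in undifferentiated cells. Its means were 21.6 ± 2.48 TPM in differentiated cells and 163 ± 32.5 TPM in undifferentiated cells (SD, n = 2 each), a log2 difference of -2.85 ± 0.36 (SE) with an adjusted p of 4.41e-05. PSMA6 was called lower under all 12 alternative settings, with adjusted p up to 0.0294. PSMA2 had 6.92 and 10.4 TPM in differentiated cells against 57.3 and 31.0 TPM in undifferentiated cells (log2 difference -2.18 ± 0.41 SE, adjusted p = 0.00092). PSMA3 had 7.60 and 8.95 TPM in differentiated cells and 41.4 and 29.6 TPM in undifferentiated cells (adjusted p = 0.00104). PSMA4, whose tail helps to close the gate of the barrel, had 16.7 and 20.6 TPM in differentiated cells and 76.7 and 46.4 TPM in undifferentiated cells (adjusted p = 0.0042). In these 4 genes each differentiated library was below each undifferentiated library, as in 39.0% of all genes tested. PSMA5 and PSMA7 were not called, with adjusted p of 0.084 and 0.213, although their libraries did not overlap. In PSMA1 the stages overlapped, with 12.2 and 14.5 TPM in differentiated cells and 23.8 and 14.4 TPM in undifferentiated cells.

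The 7 alpha subunits are incorporated in equal number, yet the TPM of their genes were not equal. PSMA6 was the highest and PSMA5 the lowest in all 4 libraries. The ratio of the highest to the lowest TPM in the ring was 4.14 and 4.38 in differentiated libraries against 14.5 and 17.1 in undifferentiated libraries. TPM are scaled by gene length, which allows a rough comparison between genes. The part of base composition, overlapping genes and gene copies in these levels was not tested.

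**Figure D3:**
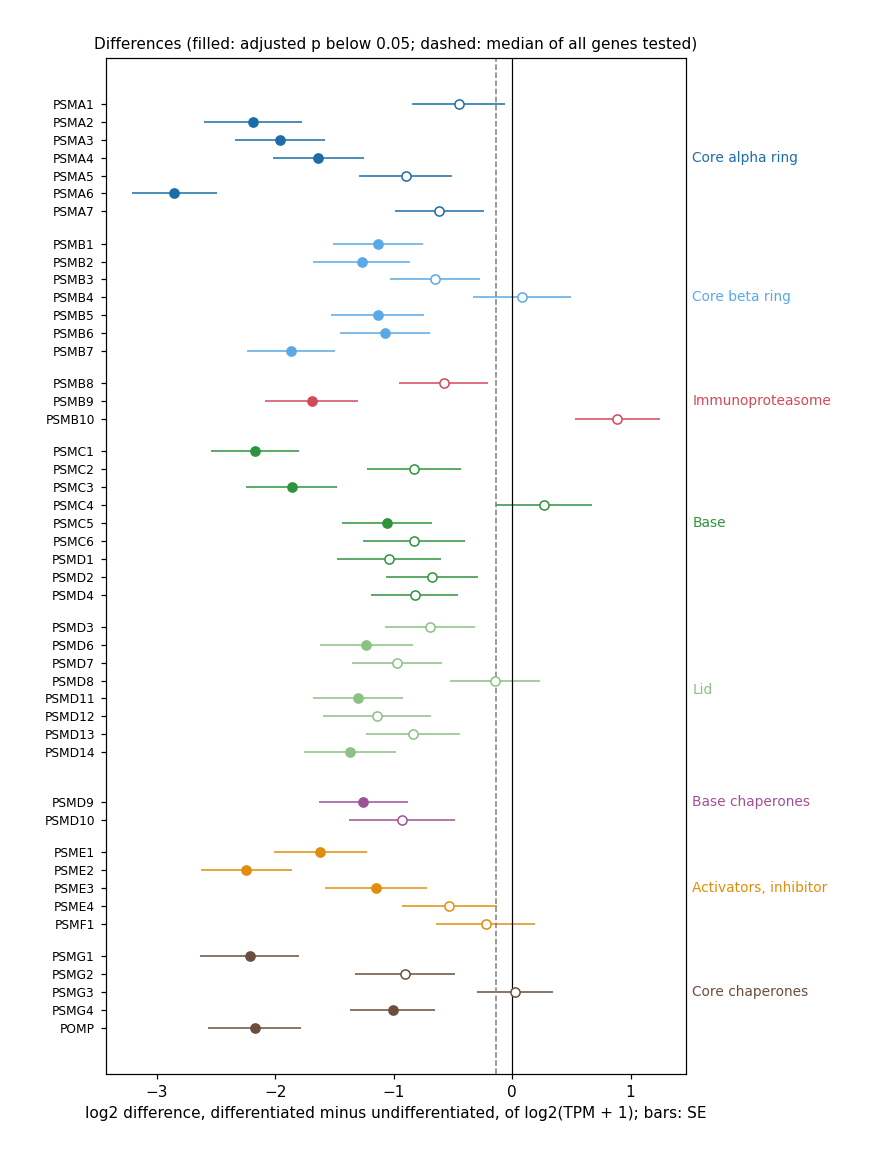
Log2 difference (differentiated minus undifferentiated, of log2(TPM + 1)) of the 46 tested proteasome genes by group, with bars for the SE. Filled points have an adjusted p below 0.05 in limma, the dashed line marks the median of all genes tested (-0.14), and the filled points all lie left of it.

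Among the 7 constitutive beta subunits, 5 were called lower (median log2 difference -1.13), including all 3 catalytic ones, against 22.8% of all genes tested. PSMB7, which carries the trypsin-like site, had 8.67 and 10.1 TPM in differentiated cells and 42.4 and 31.7 TPM in undifferentiated cells (log2 difference -1.87 ± 0.37 SE, adjusted p = 0.00136). PSMB5, which carries the chymotrypsin-like site and is the target of bortezomib, had 1.71 and 1.74 TPM in differentiated cells and 6.56 and 3.73 TPM in undifferentiated cells (adjusted p = 0.0343). It was the lowest of the 14 constitutive core transcripts in every library. PSMB6, with the caspase-like site, had 7.12 and 8.77 TPM in differentiated cells and 19.9 and 15.8 TPM in undifferentiated cells (adjusted p = 0.0365, and 0.0626 with protein-coding rescaling).

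The remaining beta subunits have no active site. PSMB1 had 11.5 and 11.1 TPM in differentiated cells against 31.3 and 21.5 TPM in undifferentiated cells (adjusted p = 0.0287). PSMB2 had 3.35 and 4.93 TPM in differentiated cells against 14.9 and 8.44 TPM in undifferentiated cells (adjusted p = 0.0251). Both were lower in each differentiated library than in any undifferentiated one, as were 39.0% of all genes tested. PSMB3 was not called (adjusted p = 0.193). PSMB4, which joins late in the assembly of the beta ring, had 11.1 and 13.3 TPM in differentiated cells and 15.9 and 8.13 TPM in undifferentiated cells, so that the stages overlapped (log2 difference 0.08 ± 0.41 SE, adjusted p = 0.893).

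Of the 3 immunoproteasome subunits, 1 was called lower, against 22.8% of all genes tested, and 2 were not called. The 3 did not share a direction. PSMB9 (ENSG00000240065) had 1.35 and 0.73 TPM in differentiated cells and 7.16 and 4.19 TPM in undifferentiated cells. It was called lower, with a log2 difference of -1.69 ± 0.39 (SE) and an adjusted p of 0.00376, which was 0.157 without differentiated replicate 1 and 0.274 without differentiated replicate 2. PSMB8 (ENSG00000204264) had 2.44 and 2.16 TPM in differentiated cells and 4.45 and 3.45 TPM in undifferentiated cells. Its stages did not overlap, but the difference of -0.58 ± 0.38 (SE) was not called (adjusted p = 0.239). PSMB10 (ENSG00000205220) had 3.87 and 3.24 TPM in differentiated cells and 1.79 and 1.16 TPM in undifferentiated cells, the only one of the tested proteasome genes with both differentiated libraries higher. Its log2 difference of 0.89 ± 0.36 (SE) had an unadjusted p of 0.0283 and an adjusted p of 0.0648. It was called higher in 5 of its 11 alternative settings, with adjusted p between 0.000389 and 0.395 over them. After rescaling over protein-coding genes its log2 difference was 1.73, with an adjusted p of 0.00275. PSMB10 was the lowest of the 3 subunits in both undifferentiated libraries and the highest in both differentiated libraries.

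Ratios of TPM within a library do not depend on how whole libraries were scaled. PSMB10 over PSMB7, the subunit whose place it takes, was 0.446 and 0.322 in differentiated cells and 0.0423 and 0.0366 in undifferentiated cells. The mean ratio was 9.75 times higher in differentiated cells (0.384 ± 0.0879 against 0.0394 ± 0.00404, SD, n = 2 each). Mean PSMB7 was 3.96 times higher in undifferentiated cells and mean PSMB10 2.41 times higher in differentiated cells. PSMB10 was near the 1 TPM filter in undifferentiated libraries. GC content was 60.6% for PSMB10 and 48.7% for PSMB7. With the GC trend of each library removed, their log2 differences were 0.61 and -1.60, against 0.89 and -1.87 as deposited. The part of base composition in the ratio was not tested. PSMB8 over PSMB5 was 1.43 and 1.24 in differentiated cells and 0.678 and 0.925 in undifferentiated cells. PSMB9 over PSMB6 was 0.190 and 0.0832 in differentiated cells against 0.359 and 0.266 in undifferentiated cells, the opposite direction. None of these ratios overlapped between stages, and how often ratios of other gene pairs do so was not tested. Over the 3 pairs, the mean log2 ratio of (TPM + 1) values was -0.81 and -1.23 in differentiated libraries and -1.93 and -1.90 in undifferentiated libraries, a difference of 0.90. This mean joins pairs of opposite direction and is not a shift shared by all 3. Between stages the mean TPM ratio changed 9.75-fold for PSMB10 over PSMB7, 1.66-fold for PSMB8 over PSMB5 and 0.44-fold for PSMB9 over PSMB6. With 2 libraries on each side, the smallest two-sided p of an exact permutation test is 0.333, so no p is given for the ratios.

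**Figure D4:**
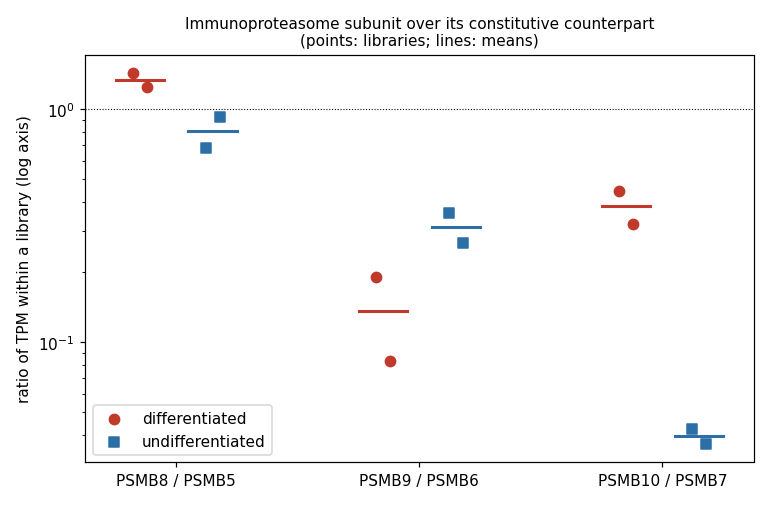
TPM ratio of each immunoproteasome subunit to the constitutive subunit it replaces, per library on a log axis, with differentiated libraries (circles) left of undifferentiated ones (squares) and a line for each mean. PSMB10/PSMB7 and PSMB8/PSMB5 were higher in both differentiated libraries than in either undifferentiated one, and PSMB9/PSMB6 was lower.

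The promoter windows of these 3 genes and of the activator pair PSME1 and PSME2 are shown because these interferon-inducible genes did not all differ in the same direction. They are RefSeq sequences of GRCh38.p14, from 250 bases before to 50 bases after a transcript start, and 41 of the 47 genes had a window. Each is written 5′ to 3′ along the gene's strand, with a match to the interferon response motif GAAANNGAA, on either strand, in capitals. The windows are chr6:32843998-32844297 on the minus strand for PSMB8, chr6:32853942-32854241 on the plus strand for PSMB9, chr16:67936801-67937100 on the minus strand for PSMB10, chr14:24135944-24136243 on the plus strand for PSME1 and chr14:24146561-24146860 on the minus strand for PSME2.
PSMB8: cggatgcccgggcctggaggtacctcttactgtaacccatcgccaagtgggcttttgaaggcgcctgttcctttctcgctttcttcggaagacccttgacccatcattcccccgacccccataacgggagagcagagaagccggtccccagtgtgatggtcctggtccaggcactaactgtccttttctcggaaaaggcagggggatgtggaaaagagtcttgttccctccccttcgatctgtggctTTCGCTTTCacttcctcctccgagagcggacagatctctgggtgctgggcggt
PSMB9: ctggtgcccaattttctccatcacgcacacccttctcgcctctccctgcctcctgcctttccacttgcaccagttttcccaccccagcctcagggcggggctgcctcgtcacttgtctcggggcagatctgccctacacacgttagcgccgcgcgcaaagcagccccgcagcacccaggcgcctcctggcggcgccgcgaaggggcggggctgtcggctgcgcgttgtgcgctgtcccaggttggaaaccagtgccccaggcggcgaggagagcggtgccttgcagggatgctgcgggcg
PSMB10: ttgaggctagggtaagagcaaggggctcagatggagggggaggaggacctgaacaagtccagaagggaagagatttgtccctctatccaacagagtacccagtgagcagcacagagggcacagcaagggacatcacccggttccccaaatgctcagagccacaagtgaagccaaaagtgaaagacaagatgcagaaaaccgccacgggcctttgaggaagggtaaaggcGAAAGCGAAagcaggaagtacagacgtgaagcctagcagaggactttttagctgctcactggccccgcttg
PSME1: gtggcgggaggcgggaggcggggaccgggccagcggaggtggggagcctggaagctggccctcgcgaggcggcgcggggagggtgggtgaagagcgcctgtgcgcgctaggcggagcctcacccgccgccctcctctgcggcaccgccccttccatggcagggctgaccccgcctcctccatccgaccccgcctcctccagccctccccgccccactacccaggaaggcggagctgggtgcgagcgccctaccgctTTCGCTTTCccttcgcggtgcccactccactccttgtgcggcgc
PSME2: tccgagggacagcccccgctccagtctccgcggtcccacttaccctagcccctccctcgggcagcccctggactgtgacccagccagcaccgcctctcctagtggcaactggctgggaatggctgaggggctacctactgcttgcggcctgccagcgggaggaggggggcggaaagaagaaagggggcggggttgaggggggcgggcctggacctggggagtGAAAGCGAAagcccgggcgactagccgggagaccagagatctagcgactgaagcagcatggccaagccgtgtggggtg
Counted from 1 at the 5′ end of each window, the match began at base 248 in PSMB8, 230 in PSMB10, 257 in PSME1 and 223 in PSME2, and these letters were not in the PSMB9 window. The window of the divergent neighbour TAP1, which shares 13 bases with that of PSMB9, holds 2 overlapping matches that lie outside the PSMB9 window. A second RefSeq window of PSMB8, at another start, did not hold them either. Thus the motif was present both in PSMB10, whose transcript was higher in both differentiated libraries, and in PSME1 and PSME2, whose transcripts were called lower. Over all proteasome genes with a window, 9 of 41 (22.0%) held the motif, compared with 9.86% of all genes in the promoter table (8.11% of its 35116 windows). The gamma-activated site TTCNNNGAA was found in 7 of the 41 genes (17.1%) and in 9.38% of all genes (7.66% of windows). The antioxidant response element core TGACNNNGC, the kind of site through which NFE2L1 acts on proteasome genes, was found in 15 of the 41 (36.6%) and in 16.1% of all genes (13.3% of windows), both strands being searched for each motif. The 3 motifs were counted separately, whether or not their matches overlap. A match is a run of letters and does not show that a factor binds there.

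The base of the regulatory particle holds the ATPase ring that unfolds substrates. Of its 9 genes, 3 were called lower (median log2 difference -0.83), against 22.8% of all genes tested. The ATPase gene PSMC1 had 13.1 and 11.7 TPM in differentiated cells and 69.6 and 50.4 TPM in undifferentiated cells (log2 difference -2.17 ± 0.37 SE, adjusted p = 0.000424). Its paralogue PSMC3 had 5.24 and 4.08 TPM in differentiated cells against 22.6 and 16.7 TPM in undifferentiated cells (adjusted p = 0.00169). PSMC5 averaged 6.94 ± 1.19 TPM in differentiated cells and 15.5 ± 2.82 TPM in undifferentiated cells (SD, n = 2 each, adjusted p = 0.0409). The other ATPases were not called. PSMC4 was the lowest base transcript in both undifferentiated libraries, and its stages overlapped, with 5.77 and 5.09 TPM in differentiated cells and 5.86 and 3.15 TPM in undifferentiated cells (log2 difference 0.27, adjusted p = 0.635). The adjusted p of PSMC4 was 0.0327 after rescaling over protein-coding genes, at a log2 difference of 0.87. Among the 9 base genes, the ratio of the highest to the lowest TPM was 3.83 and 5.08 in differentiated libraries and 11.9 and 16.0 in undifferentiated libraries. The scaffold subunits PSMD1 and PSMD2 and the ubiquitin receptor PSMD4 were not called, with adjusted p of 0.0759, 0.187 and 0.0924.

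In the lid, 3 of 8 genes were called lower (median log2 difference -1.06), against 22.8% of all genes tested. PSMD14, the deubiquitinase that removes ubiquitin chains as substrates enter, had 4.58 and 4.93 TPM in differentiated cells and 16.7 and 11.5 TPM in undifferentiated cells (log2 difference -1.37 ± 0.39 SE, adjusted p = 0.0121). The scaffold subunit PSMD11 had 5.00 and 5.73 TPM in differentiated cells and 17.0 and 12.7 TPM in undifferentiated cells (adjusted p = 0.0148). PSMD6 had 7.43 and 7.37 TPM in differentiated cells and 23.8 and 14.7 TPM in undifferentiated cells (adjusted p = 0.0228). All 3 were lower in each differentiated library than in any undifferentiated one, as were 39.0% of all genes tested. PSMD7, the inactive partner of PSMD14, was not called (adjusted p = 0.0579), nor was PSMD12 (adjusted p = 0.0606). PSMD3 and PSMD13 had adjusted p of 0.165 and 0.112. In PSMD8 the stages overlapped, with means of 16.8 ± 3.35 TPM in differentiated cells and 18.7 ± 4.47 TPM in undifferentiated cells (SD, n = 2 each).

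Of the activators, PSME1 and PSME2 form the heteromeric ring that is induced by interferon gamma, and both were called lower. PSME2 (ENSG00000100911) had 7.30 and 11.1 TPM in differentiated cells and 51.3 and 41.9 TPM in undifferentiated cells (log2 difference -2.24 ± 0.38 SE, adjusted p = 0.000415). PSME1 had 11.9 and 14.99 TPM in differentiated cells against 55.8 and 33.2 TPM in undifferentiated cells (log2 difference -1.62 ± 0.39 SE, adjusted p = 0.00493). The ratio of PSME1 to PSME2 was 1.63 and 1.35 in differentiated libraries and 1.09 and 0.792 in undifferentiated libraries. PSME3, which forms the nuclear activator ring, had 5.92 and 7.89 TPM in differentiated cells and 24.0 and 11.1 TPM in undifferentiated cells (adjusted p = 0.0466, and 0.0700 with protein-coding rescaling). PSME4, a nuclear activator that is a single large chain, had 3.01 and 4.72 TPM in differentiated cells and 7.17 and 4.86 TPM in undifferentiated cells and was not called (adjusted p = 0.315). The inhibitor gene PSMF1 had 7.84 and 12.8 TPM in differentiated cells and 16.0 and 8.79 TPM in undifferentiated cells, so that its stages overlapped (adjusted p = 0.706).

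Among the core assembly chaperones, 3 of 5 were called lower, against 22.8% of all genes tested. POMP, which guides beta subunits onto the alpha ring, had 2.93 and 3.74 TPM in differentiated cells and 23.0 and 14.8 TPM in undifferentiated cells (log2 difference -2.17 ± 0.39 SE, adjusted p = 0.000672). Its adjusted p was 0.116 without differentiated replicate 1 and 0.0872 without differentiated replicate 2. PSMG1 had 1.3 and 0.50 TPM in differentiated cells and 10.1 and 5.70 TPM in undifferentiated cells (log2 difference -2.22 ± 0.41 SE, adjusted p = 0.000837). PSMG1 and PSMG2 act as a dimer in building the alpha ring, yet PSMG2 was not called, with 5.52 and 5.62 TPM in differentiated cells and 16.3 and 7.77 TPM in undifferentiated cells (adjusted p = 0.102). PSMG1 over PSMG2 was 0.236 and 0.0890 in differentiated libraries against 0.622 and 0.734 in undifferentiated libraries. The second dimer, PSMG3 and PSMG4, was likewise unlike within itself: PSMG4 averaged 1.49 ± 0.149 TPM in differentiated cells and 3.99 ± 0.0707 TPM in undifferentiated cells (SD, n = 2 each, adjusted p = 0.0381), and PSMG3 overlapped between stages (adjusted p = 0.965). Whether the members of either dimer differed in response was not tested. Of the base chaperones, PSMD9 had 6.91 and 8.37 TPM in differentiated cells and 18.6 and 20.6 TPM in undifferentiated cells (adjusted p = 0.0159), and PSMD10, also known as gankyrin, was not called (adjusted p = 0.114). PSMD5 was at 0.30 and 0.35 TPM in differentiated cells and 0.23 and 0.28 TPM in undifferentiated cells.

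The groups were also set against the constitutive core within each library, as the mean log2(TPM + 1) of a group minus that of the core. For the regulatory particle this was -0.12 and -0.21 in differentiated libraries and -0.43 and -0.45 in undifferentiated libraries, a difference of 0.28. For the 8 assembly chaperones of core and base it was -1.42 and -1.54 in differentiated libraries against -1.73 and -1.65 in undifferentiated libraries, a difference of 0.21. On this scale both groups were nearer to the core in each differentiated library than in any undifferentiated one. With a pseudocount of 0.1 TPM in place of 1, the difference was 0.11 for the assembly chaperones and 0.29 for the regulatory particle. The chaperones include PSMD5, which was below 1 TPM in all 4 libraries. The core includes PSMA6 (log2 difference -2.85), and the regulatory particle here leaves out SEM1 (-2.48), a small subunit of the lid. How far the differences depend on these 2 genes was not tested. For the activators and inhibitor the libraries overlapped, at -0.23 and 0.05 in differentiated and -0.15 and -0.24 in undifferentiated cells. The regulatory particle had 6 of 17 genes called lower (median log2 difference -0.97) and the core 9 of 14 (median -1.13). Of all genes tested, 22.8% were called lower. As shares of protein-coding TPM, the base took 0.0626% and 0.0591% in differentiated libraries against 0.0994% and 0.0997% in undifferentiated libraries, and the beta ring took 0.0415% and 0.0425% in differentiated libraries against 0.0630% and 0.0638% in undifferentiated libraries. The immunoproteasome was the only one of the 8 groups whose shares overlapped, at 0.00628% and 0.00455% in differentiated libraries and 0.00582% and 0.00564% in undifferentiated libraries.

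The differences also varied with the base composition of the transcripts. Across the 46 tested genes, Pearson's r between GC content and log2 difference was 0.433 and Spearman's rho 0.374, compared with an r of 0.215 over 9278 tested protein-coding genes. These are descriptions across genes of the same 4 libraries. POMP had the lowest GC content, 34.3%, and PSMB10 the highest, 60.6%. After the GC trend of each library was removed, r among the proteasome genes was 0.167, and 31 of them were called lower, against 29.1% of all genes in that fit, and 1, PSMB10, higher, against 30.0%. The part of base composition in single differences was not tested further.

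**Figure D5:**
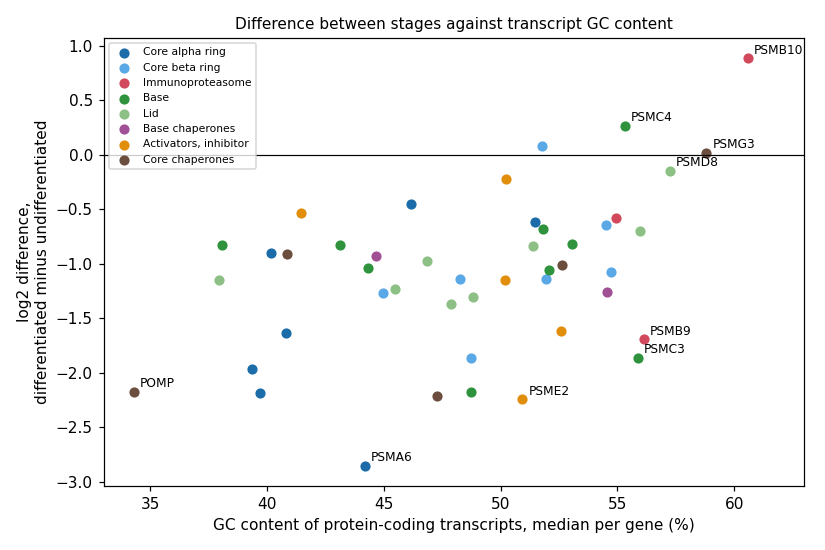
Log2 difference (differentiated minus undifferentiated, of log2(TPM + 1)) against the median GC content (%) of each gene's protein-coding transcripts, for the 46 tested proteasome genes coloured by group. Points at higher GC content tend to lie higher (r = 0.433), with PSMB10 at the upper right and PSMA6 at the bottom.

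Neighbouring and copied genes limit some values. In the GENCODE 29 annotation, exons of 19 of the 47 genes overlap a gene on the opposite strand and exons of 8 overlap one on the same strand. The kit made stranded libraries, but the strand setting of the quantification is not given in the sources used here. PSMB8 shares 618 exon bases with PSMB8-AS1 on the opposite strand, and PSMB9 shares 174 with it on the same strand. PSMB8-AS1 itself stood at 4.06 and 5.20 TPM in differentiated cells and 4.50 and 3.45 TPM in undifferentiated cells. PSMB10 shares 644 exon bases with AC040162.1 on the same strand, and PSMA6 shares 919 with AL121594.1, each of which stayed below 1 TPM in all libraries. Of 30 pseudogenes named after proteasome genes, 19 were listed at 0 in all libraries and only PSMC1P1 reached 1 TPM, with 1.95 and 1.86 TPM in differentiated cells and 4.31 and 2.52 TPM in undifferentiated cells. How reads were divided between such copies and their parent genes cannot be read from TPM.

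Beyond the 47 genes, 13 further proteasome-associated genes were examined, of which 11 were tested, with a median log2 difference of -0.11. Of these, 3 were called lower, near the 22.8% of all genes tested. None was called higher (0 at an unadjusted p below 0.05), against 18.6% of all genes. SEM1, a small subunit of the lid, had 36.7 and 31.8 TPM in differentiated cells and 221 and 171 TPM in undifferentiated cells (log2 difference -2.48 ± 0.35 SE, adjusted p = 0.000108). UCHL5, a deubiquitinase bound to the base, had 3.34 and 6.20 TPM in differentiated cells and 33.01 and 19 TPM in undifferentiated cells (adjusted p = 0.000963). TXNL1, a thioredoxin-like protein that binds the regulatory particle, had 8.18 and 10.3 TPM in differentiated cells against 35.1 and 18.6 TPM in undifferentiated cells (adjusted p = 0.0154). After rescaling over protein-coding genes, 4 genes of this list were called higher, namely ADRM1, FBXO7, AKIRIN2 and ZFAND5, and the same 3 were called lower. With 12 genes of the list tested on that scale, the 4 are near the 34.3% of all genes called higher there. NFE2L1 is the transcription factor that raises proteasome gene expression when proteolysis is impaired. It had 9.84 and 11.04 TPM in differentiated cells and 8.43 and 6.51 TPM in undifferentiated cells, and it was not called (adjusted p = 0.379, and 0.00824 with protein-coding rescaling). Its processing enzymes DDI2 and NGLY1 were not called either.

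Among 8 genes that shuttle or extract ubiquitinated proteins, only the shuttle factor RAD23B was called lower, against a share of 22.8% of all genes tested. RAD23B had 22.8 and 19.9 TPM in differentiated cells and 74.8 and 63.3 TPM in undifferentiated cells (log2 difference -1.65 ± 0.36 SE, adjusted p = 0.00239). None of the 8 was called higher, against 18.6% of all genes, nor was any higher at an unadjusted p below 0.05. After rescaling over protein-coding genes 4 were called higher, where 34.3% of all genes were. Of 6 ubiquitin and ubiquitin-activating genes, 1 was called lower, against 22.8% of all genes tested. It was RPS27A, which encodes ubiquitin fused to a ribosomal protein, with 57.0 and 60.7 TPM in differentiated cells and 199 and 97.5 TPM in undifferentiated cells (adjusted p = 0.0242).

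The 9 antigen-processing partners and interferon factors held 2 called lower, near the 22.8% of all genes tested. They held 1 called higher, against 18.6% of all genes (median log2 difference of the 9, -0.45). B2M, the light chain of MHC class I, had 227 and 183 TPM in differentiated cells and 78.1 and 44.8 TPM in undifferentiated cells (log2 difference 1.77 ± 0.38 SE, adjusted p = 0.00209). ERAP2, which trims peptides in the endoplasmic reticulum, had 1.33 and 0.83 TPM in differentiated cells and 8.87 and 6.13 TPM in undifferentiated cells (adjusted p = 0.00103). NLRC5, the transactivator of MHC class I genes, had 1.13 and 1.92 TPM in differentiated cells and 5.87 and 3.33 TPM in undifferentiated cells (adjusted p = 0.0359). The peptide transporter gene TAP1 is the divergent neighbour of PSMB9. TAP1 overlapped between stages, with 1.15 and 1.36 TPM in differentiated cells and 1.35 and 0.82 TPM in undifferentiated cells (adjusted p = 0.747). TAP2 had 0.87 and 0.82 TPM in differentiated cells and 2.23 and 1.00 TPM in undifferentiated cells (adjusted p = 0.224). IRF1, an interferon-induced activator of immunoproteasome genes, had 5.03 and 6.72 TPM in differentiated cells against 10.3 and 6.70 TPM in undifferentiated cells (adjusted p = 0.389).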

How the data were processed

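RNA from 4 BLaER1 libraries, 2 differentiated and 2 undifferentiated, was analysed from the authors' deposited TPM values, with libraries grouped by the stage in their labels. The submitters' processing notes name Trimmomatic, STAR and RSEM as the authors' tools. Their versions, the build and the annotation were not given in the sources used here. TPM keep no depth, so no counting error could be computed, and an abundant RNA lowers every other TPM in its library.

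Of 58302 genes, 10180 reached 1 TPM in 2 or more of the 4 libraries, and these were compared on log2(TPM + 1) with limma 3.58.1 in R 4.3.3 (trended eBayes, two-sided, 2 residual and 10.9 prior degrees of freedom). Adjustment was by Benjamini-Hochberg over all tested genes, and an adjusted p below 0.05 is a call. This scale understates changes of genes with low TPM. The procedure was run on simulated data drawn with variances from its own fit, without differences in library scale or base composition. Such a run cannot show how calls behave where libraries differ in these. Gene types, GC content and overlaps came from GENCODE 29, in which 58039 of the 58302 IDs were found and which need not be the authors' annotation. Rescaling over protein-coding genes used these types and left 11945 genes tested.

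The genes and lists were chosen with earlier results of these data known. Values per library were to be given for the catalytic and immunoproteasome subunits, PSME1 to PSME4, PSMF1, POMP and the 20 called genes with the largest differences. From each other list up to 3 called genes were named, plus TAP1, TAP2, NFE2L1 and IRF1, and other genes were picked with their values in view. Alternatives were median-of-ratios scaling, rescaling over protein-coding genes, a pseudocount of 0.1 TPM, no filter, a filter of 5 TPM, leaving out each library and a replicate block. Removal of GC or length trends (lowess, span 0.3) was added after seeing the data.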

Additional observations from a re-analysis of the deposited data

How the results depend on the processing

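With TPM and 2 libraries a stage, the spread within stages limits every call, and depth is unknown. The number of proteasome genes called lower was 5 with no filter and 1 to 37 when a library was left out. The number called higher was 1 with median-of-ratios scaling, GC trend removal or length trend removal, 2 with rescaling over protein-coding genes, and 0 to 1 when a library was left out. Over all genes, 4102 were called higher with rescaling over protein-coding genes, 687 with no filter, 1016 with a filter of 5 TPM and 934 to 2714 when a library was left out. Those called lower numbered 573 with no filter, 1420 with a filter of 5 TPM and 337 to 3818 when a library was left out. A stage with 1 library left was assumed to vary like the other stage. Of the 23 proteasome genes called lower, 23 kept the call with median-of-ratios scaling and with either trend removed, 22 with a pseudocount of 0.1 TPM, 19 with a filter of 5 TPM (which 3 of the 23 did not pass) and 16 with the replicate block. With the replicate block no gene of the 47 was called higher. Deviations of same-numbered libraries from their stage means had a correlation of -0.02 over genes. With 2 libraries a stage, this cannot tell whether replicate numbers mark a shared culture or day. The difference of activators and inhibitor to core lay between -0.031 and 0.24 when a library was left out. Log2 differences changed sign in genes that were not called: PSMA1 (0.086), PSMD8 (0.41) and PSMF1 (0.32) with protein-coding rescaling, PSME4 (0.0060) and PSMG3 (-0.18) with the GC trend removed, and PSMD8 (0.027) with the length trend removed. When a library was left out, PSMB4 lay between -0.36 and 0.53, PSMC4 between -0.10 and 0.63, PSMD8 between -0.38 and 0.090, PSMF1 between -0.62 and 0.17, and PSMG3 between -0.35 and 0.39. The causes were not tested.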

Other observations

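Antisense genes named after proteasome genes were also in the table, 6 in number, of which 2 reached 1 TPM in any library. PSMA3-AS1 had 10.3 and 9.82 TPM in differentiated cells and 17.3 and 11.6 TPM in undifferentiated cells. The tissue-restricted core subunits PSMA8, of the testis, and PSMB11, of the thymus, stayed below 1 TPM in all 4 libraries. PSMA8 had 0.14 and 0.28 TPM in differentiated cells and 0.43 and 0.47 TPM in undifferentiated cells, and PSMB11 was at or below 0.06 TPM.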
